A study of Mus musculus with 4 samples.

Results

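The 7 genes described here were Foxn1, its reported target Tbata, and Pax1, Pax9, Eya1, Hoxa3 and Trp63, which encode regulators of thymus organogenesis and of thymic epithelial identity. They were matched by symbol to the gene list of the deposited matrices, and all 7, of 31053 genes listed, were found in each of the 4 libraries. The study asked how the receptor activator of NF-kB ligand (RANKL) and CD40, both signals of the tumour necrosis factor families that act on thymic epithelial cells (TECs), work together on the postnatal thymus. Single-cell RNA-seq was performed on TECs sorted as EpCAM+CD45-TER119- cells, with 3 mice pooled into 1 library per condition. WT-Control came from wild-type C57BL/6 mice given control rat IgG, and WT-RANKL-Ab from wild-type mice given the RANKL-neutralizing monoclonal antibody OYC1. The Cd40-/- Control and Cd40-/- RANKL-Ab libraries (CD40KO in the labels) came from Cd40-deficient mice on the same background, given control IgG or OYC1. In all 4 conditions 5 mg/kg of IgG was injected under the skin at 4 weeks of age and the thymus was taken 2 weeks later, at 6 weeks of age. Neither the Cd40 deficiency nor the injected antibody was limited to TECs, and pooling removed any view of the spread between mice.

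With 1 library per condition there was no replicate and no test between conditions. Levels are given as CPM, the unique molecular identifiers (UMIs, each counted as 1 captured RNA molecule) of a gene per 1000000 UMIs of the cells in question. Differences are given as log2 ratios to WT-Control, the library that all 3 comparisons share, with 95% intervals in brackets. A run of 4 values follows the order WT-Control, then WT-RANKL-Ab, then Cd40-/- Control, then Cd40-/- RANKL-Ab, and a run of 3 ratios the same order without WT-Control. The intervals cover counting error only, not differences between mice or libraries.

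FOXN1 is the forkhead transcription factor that TECs need in order to form and maintain a functional thymus, and mice without it are athymic and nude. In cortical TECs (cTECs) it drives genes for T cell production, among them the thymoproteasome subunit Psmb11, the serine protease Prss16, the chemokines Ccl25 and Cxcl12 and the Notch ligand Dll4. The Hox, Pax and Eya factors act earlier, when the third pharyngeal pouch is patterned into thymus and parathyroid, and p63, the product of Trp63, maintains the proliferative potential of epithelial progenitors in the thymus and other stratified epithelia.

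In the GENCODE M21 annotation of GRCm38 the genes lie at chr11:78357577-78386558 (Foxn1, minus strand), chr10:61171954-61188841 (Tbata, plus), chr2:147361925-147393295 (Pax1, plus), chr12:56691767-56712822 (Pax9, plus), chr1:14168954-14310235 (Eya1, minus), chr6:52169062-52213336 (Hoxa3, minus) and chr16:25683763-25892102 (Trp63, plus). FOXN1 recognises a short DNA core, GACGC, so the RefSeq promoter windows of GRCm38.p6, which run from 250 bases before to 50 bases after the transcription start, were searched for it on both strands. The core or its reverse complement GCGTC was found in 27.2% of all 32851 windows of 300 bases. It was found in 2 of the 5 genes that had a window (Pax1 and Hoxa3), in neither Foxn1 nor Tbata nor Pax9, and Eya1 and Trp63 had no window in the table. Of the 8 FOXN1-dependent genes listed below, 6 had a window and 4 of them a match, Psmb11 with 2. The windows of Foxn1 at chr11:78386559-78386858 (minus strand), Tbata at chr10:61171714-61172013 (plus strand), Pax1 at chr2:147364744-147365043 (plus strand) and Psmb11 at chr14:54625060-54625359 (plus strand) are shown because Foxn1 and Tbata carry the main results, while Pax1 and Psmb11 show what a match looks like. Capitals mark GACGC or GCGTC, at -86 in Pax1 and at -239 and -62 in Psmb11 relative to the start.
Foxn1: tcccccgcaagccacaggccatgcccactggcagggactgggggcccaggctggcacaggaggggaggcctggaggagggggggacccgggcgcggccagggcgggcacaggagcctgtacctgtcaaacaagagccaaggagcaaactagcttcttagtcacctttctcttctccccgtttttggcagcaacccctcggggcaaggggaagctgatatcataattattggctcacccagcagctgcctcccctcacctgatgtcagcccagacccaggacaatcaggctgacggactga
Tbata: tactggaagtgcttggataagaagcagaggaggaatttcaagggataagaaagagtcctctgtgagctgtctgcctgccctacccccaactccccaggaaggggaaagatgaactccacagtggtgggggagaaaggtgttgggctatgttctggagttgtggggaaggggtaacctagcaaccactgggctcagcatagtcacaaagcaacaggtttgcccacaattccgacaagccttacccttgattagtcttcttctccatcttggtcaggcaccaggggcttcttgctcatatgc
Pax1: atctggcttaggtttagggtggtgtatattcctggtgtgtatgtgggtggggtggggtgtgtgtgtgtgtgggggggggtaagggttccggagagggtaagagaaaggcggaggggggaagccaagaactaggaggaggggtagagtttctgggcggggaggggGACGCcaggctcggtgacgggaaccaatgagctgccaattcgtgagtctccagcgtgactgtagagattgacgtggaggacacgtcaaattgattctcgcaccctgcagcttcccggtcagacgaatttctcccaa
Psmb11: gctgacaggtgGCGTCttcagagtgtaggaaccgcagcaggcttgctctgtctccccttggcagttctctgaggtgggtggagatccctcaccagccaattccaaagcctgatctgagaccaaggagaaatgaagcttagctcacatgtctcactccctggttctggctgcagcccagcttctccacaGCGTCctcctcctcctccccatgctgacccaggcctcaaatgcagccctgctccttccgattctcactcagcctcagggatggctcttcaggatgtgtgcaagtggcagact
A match to 5 letters describes the window only, and no binding was measured here.

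After filtering, 10218, 7164, 8591 and 2082 cells remained in the 4 libraries, with medians of 7621.5, 6086, 6267 and 7531.5 UMIs per cell. The targeted gene followed the labels: Cd40 was at 110 CPM over all cells of WT-Control and 28.8 CPM in WT-RANKL-Ab, against 5.75 and 4.75 CPM in the 2 Cd40-/- libraries. Cells were assigned to 16 classes by the summed UMIs of marker genes, and the classes are described below as they appear. The Cd40-/- libraries shared 205 cell barcodes, 9.85% of the smaller one, while no other pair shared more than 1.42% of the smaller library. These barcodes carried 26.8% of the UMIs of Cd40-/- RANKL-Ab and 0.46% of those of Cd40-/- Control, so the main ratios and class origins over all cells of Cd40-/- RANKL-Ab are given below with and without them. Their median was 24073 UMIs in Cd40-/- RANKL-Ab and 723 in Cd40-/- Control. Below, they are left out of both libraries, so values without them lack many deep cells of Cd40-/- RANKL-Ab and are not corrected values. Leaving them out of Cd40-/- Control alone moved 2 recomputed values and left 202 the same. The library they came from was not tested.

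Over all sorted cells, all 7 genes were higher in each of the other 3 libraries than in WT-Control. Foxn1 had 49.6 CPM in WT-Control, 64.1 CPM with the antibody alone, 57.1 CPM with Cd40 loss alone and 93.7 CPM with both. Its log2 ratios to WT-Control were 0.37 [0.30 to 0.44], 0.20 [0.14 to 0.26] and 0.92 [0.84 to 1.00]. Without the shared barcodes the last value was 0.65 [0.56 to 0.75], so Foxn1 kept the same order of libraries but the gap narrowed.
Tbata, named for its expression in thymus, brain and testis, was at 1142, 3150, 2791 and 5257 CPM, log2 ratios of 1.46 [1.45 to 1.47], 1.29 [1.28 to 1.30] and 2.20 [2.19 to 2.21]. The last of these was 1.63 [1.61 to 1.64] without the shared barcodes. Tbata thus stood furthest above WT-Control in the library with both losses, as Foxn1 did.
The log2 ratios of the other genes lay between 0.95 and 1.58 in WT-RANKL-Ab, between 0.44 and 0.95 in Cd40-/- Control and between 0.74 and 2.25 in Cd40-/- RANKL-Ab, where they lay between 0.92 and 2.03 without the shared barcodes. The interval lay above 0 for 7 of 7 genes in each library, where 42.8%, 40.8% and 44.3% of all genes with at least 20 UMIs did so. The ratio was at least 2-fold for 4, 1 and 4 of the 7 genes, against 4.45%, 2.52% and 9.15% of all genes, for which 1 CPM was added to each level here and below. With TMM scaling, which shifts each library's ratios by a constant, the Foxn1 ratios were 0.23, 0.04 and 0.78.

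The level over all cells depends on which cells a library holds. The classes with most Foxn1 were cTEC-like cells, set by Psmb11 and Prss16, and barcodes with both cTEC and thymocyte markers, called thymocyte-cTEC. cTEC-like cells held 1.06%, 8.33%, 6.42% and 17.5% of the UMIs of the 4 libraries (99, 439, 580 and 302 cells). These are shares of what each library recovered, not cell numbers of the thymus. By flow cytometry the study found no effect of the antibody or the Cd40 deficiency on cTEC numbers. It also reported cTECs as less frequent in its single-cell data than by flow cytometry. Aire+ mTEC-like cells, medullary TECs set by Aire, Fezf2 and Cd80, held 35.9%, 4.71%, 26.7% and 0.451% (2995, 395, 1906 and 9 cells). The origin of the Foxn1 UMIs shifted with these classes. In WT-Control 48.2% of them came from Aire+ mTEC-like cells and 3.55% from cTEC-like cells, whereas in Cd40-/- RANKL-Ab 1.34% came from Aire+ mTEC-like and 35.9% from cTEC-like cells. For Tbata, Aire+ mTEC-like cells gave 51.0% and cTEC-like cells 17.1% in WT-Control, against 0.523% and 55.4% in Cd40-/- RANKL-Ab. Without the shared barcodes, cTEC-like cells of that library gave 40.9% of its Foxn1 and 72.9% of its Tbata UMIs, and Aire+ mTEC-like cells gave 2.19% and 1.06%.

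To separate class make-up from levels within classes, the WT-Control level of each class was weighted by the share of UMIs that the class held in another library. Make-up alone then gave Foxn1 log2 ratios of 0.05, 0.30 and 0.49, and levels within classes gave the remaining 0.32, -0.10 and 0.42. The opposite weighting, class levels of a library at the make-up of WT-Control, gave 0.42 with the antibody alone and -0.11 with Cd40 loss alone, and could not be made for Cd40-/- RANKL-Ab, where some classes had too few cells. For Tbata, make-up gave 1.16, 1.27 and 2.15, leaving 0.30, 0.01 and 0.05. For Pax1 it gave 1.18, 0.87 and 1.88, leaving 0.25, 0.08 and 0.36. The opposite weighting gave 0.76 and -0.0015 for Tbata and 0.49 and 0.18 for Pax1 in WT-RANKL-Ab and Cd40-/- Control. In WT-RANKL-Ab the part of the Tbata difference that lay within classes was thus larger under that weighting, 0.76 of 1.46 in place of 0.30. In Cd40-/- Control nearly all of the Tbata difference went with class shares under both weightings, and most of the Foxn1 difference in WT-RANKL-Ab lay within classes under both. Without the shared barcodes, make-up in Cd40-/- RANKL-Ab gave 0.18 for Foxn1, 1.61 for Tbata and 1.67 for Pax1, leaving 0.47, 0.01 and 0.35.
For Pax9, make-up gave 0.36, 0.01 and 0.43 and left 0.61, 0.59 and 0.44. For Eya1 it gave 0.75, -0.14 and 0.51, for Hoxa3 1.00, 0.36 and 1.16, and for Trp63 0.85, 0.05 and 0.99, with 0.16, 0.57 and 0.88 left within classes for Trp63. Without the shared barcodes, make-up in Cd40-/- RANKL-Ab gave 0.49 for Pax9, 0.64 for Eya1, 0.92 for Hoxa3 and 1.11 for Trp63. In Cd40-/- Control, then, nearly all of the Pax9, Eya1 and Trp63 difference lay within classes.

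**Figure D1:**
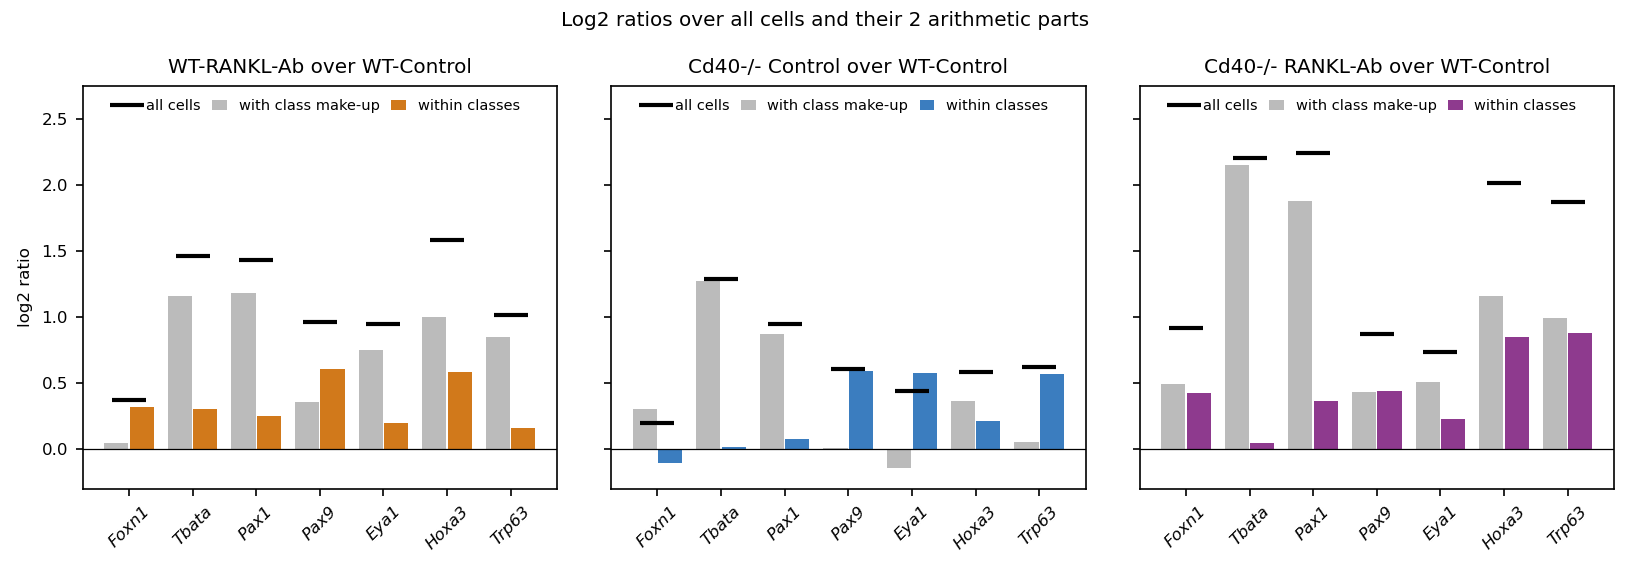
Log2 ratios to WT-Control of the 7 genes over all cells (black line), split into the ratio given by class make-up at WT-Control levels (grey bars) and the remainder within classes (coloured bars), one panel per library, with the shared barcodes kept. Make-up at WT-Control levels gives 1.16, 1.27 and 2.15 for Tbata, whereas in Cd40-/- Control the Pax9 and Trp63 ratios lie almost wholly within classes.

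In WT-Control, Foxn1 was highest in cTEC-like cells at 166 CPM, followed by thymocyte-cTEC at 126 CPM, whose interval overlapped that of cTEC-like cells. Aire+ mTEC-like cells came next at 66.7 CPM, below thymocyte-cTEC by more than the intervals. Below them followed neuroendocrine-like cells at 55.6 CPM, cycling cells with low and high Ccl21a at 51.5 and 48.0 CPM, keratinocyte-like cells at 45.2 CPM and enterohepatic-like cells at 43.3 CPM. Mgp/Gpx3-low and Mgp/Gpx3-high cells, the 2 parts of the Ccl21a-high mTEC-like cells that express the T cell attractant Ccl21a, were at 38.4 and 31.3 CPM. Progenitor-like cells, set by Pdpn, Ackr4, Dcn and Serpinf1, were at 37.6 CPM where Ccl21a was low and 29.0 CPM where it was high. Microfold-like cells were at 26.9 CPM, thymocyte-like cells at 21.3 CPM, ciliated-like cells at 9.89 CPM and tuft-like cells at 8.76 CPM. From Aire+ mTEC-like cells downward each class overlapped the next in its interval, while classes further apart did not, as with Aire+ mTEC-like (63.9 to 69.4 CPM), Mgp/Gpx3-low (35.4 to 41.6 CPM) and tuft-like cells (6.03 to 12.3 CPM).

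By summed UMIs, Foxn1 differed little among libraries within cTEC-like cells. It was at 166, 138, 165 and 192 CPM in the 4 libraries, from 168, 560, 702 and 645 UMIs. The log2 ratios were -0.26 [-0.51 to -0.01], -0.01 [-0.26 to 0.24] and 0.21 [-0.04 to 0.46]. When each cell counted equally instead of by its UMIs, they were 0.29, 0.44 and 0.73, so all 3 libraries stood above WT-Control under that setting. With a gate on 4 other cTEC genes (Ly75, Enpep, Slc46a2 and Snap91) they were -0.01, 0.25 and 0.39. Without the shared barcodes the last ratio was 0.27 [0.01 to 0.53]. Against Cd40-/- Control, Foxn1 in Cd40-/- RANKL-Ab was higher by 0.22 [0.06 to 0.38] on the log2 scale. The 4 other cTEC genes were all detected in the class in each library, with a sum of 1409, 1196, 1568 and 1479 CPM, and thymocyte markers summed to 274, 242, 247 and 207 CPM. With the shared barcodes kept, none of the 7 genes was past 2-fold in cTEC-like cells in any library. Of all genes, 4.72%, 9.44% and 6.73% were at least 2-fold higher. The interval lay above 0 for 2 of the 7 genes in each library, against 12.1%, 22.1% and 15.1% of all genes.
In thymocyte-cTEC, Foxn1 was at 126, 120, 113 and 167 CPM, log2 ratios of -0.07 [-0.39 to 0.26], -0.15 [-0.45 to 0.16] and 0.40 [0.10 to 0.72]. Here the library with both losses alone stood above WT-Control by more than counting error. Of the 99 thymocyte-cTEC barcodes of that library, 78 were among the shared barcodes. The 21 others gave a ratio of 0.74 [0.28 to 1.19].

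Among the 6 classes compared in most detail (cTEC-like, thymocyte-cTEC, and both kinds of progenitor-like and of Ccl21a-high mTEC-like cells), the largest Foxn1 differences were in Mgp/Gpx3-low cells. Foxn1 stood at 38.4 CPM in the WT-Control library, at 39.0 CPM in Cd40-/- Control, and at 68.4 CPM in WT-RANKL-Ab and 93.3 CPM in Cd40-/- RANKL-Ab. The log2 ratios were 0.83 [0.69 to 0.98], 0.02 [-0.19 to 0.23] and 1.28 [1.07 to 1.49], so both antibody libraries were higher and Cd40-/- Control was level with WT-Control within counting error. The Cd40-/- Control ratio was 0.27 with gate limits halved, and the last ratio was 1.26 without the shared barcodes. In this class 1, 1 and 3 of the 7 genes were at least 2-fold higher (Tbata in each library, Foxn1 and Pax1 in Cd40-/- RANKL-Ab), where 1.22%, 3.6% and 5.96% of all genes were. Intervals lay above 0 for 5 of the 7 in each library, against 35.6%, 33.5% and 31.2% of all genes. After each cell was thinned to 1000 UMIs, 2.93%, 6.00%, 3.28% and 7.18% of Mgp/Gpx3-low cells had a Foxn1 UMI (19.2%, 30.2%, 18.4% and 41.0% before thinning). In thymocyte-like cells, which should lack Foxn1, the thinned shares were 1.19%, 2.06%, 0.826% and 0.562%. Median depths were 6304, 6395.5, 5840 and 7589 UMIs in Mgp/Gpx3-low cells, and 3554.5, 1761.5, 1438.5 and 1661 UMIs in thymocyte-like cells. Thinning left out the 570, 492, 806 and 74 cells of the libraries that had fewer UMIs than that.

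cTEC genes were also higher in these cells: Psmb11 and Prss16 together were at 56.7, 200.1, 185 and 477 CPM in the Mgp/Gpx3-low cells of the 4 libraries. In the cells that had 0 UMIs of both genes (1654, 1520, 741 and 137 cells), Foxn1 was at 31.8, 54.6, 32.8 and 47.0 CPM, log2 ratios of 0.78, 0.04 and 0.56. In the cells with at least 1 such UMI it was at 54.9, 85.3, 47.4 and 113 CPM, log2 ratios of 0.64, -0.21 and 1.05. The ratio in WT-RANKL-Ab was thus about as large in cells with no UMI of the 2 cTEC genes, and the ratio in Cd40-/- RANKL-Ab was smaller in them than the 1.28 of the whole class. This split was chosen after the values were seen.
In Mgp/Gpx3-high cells, Foxn1 was at 31.3, 43.7, 27.4 and 37.6 CPM, and only the WT-RANKL-Ab ratio, 0.48 [0.26 to 0.71], had an interval above 0. Ccl21a-low progenitor-like cells had 37.6, 44.1, 40.4 and 38.9 CPM of Foxn1, with all 3 intervals across 0. In Aire+ mTEC-like cells it was at 66.7 CPM in WT-Control, 89.9 CPM in WT-RANKL-Ab and 62.0 CPM in Cd40-/- Control, log2 ratios of 0.43 [0.22 to 0.64] and -0.10 [-0.21 to 0.00]. In 6 of the 6 classes compared in most detail, the Foxn1 interval of Cd40-/- Control included 0. After antibody treatment the WT Aire+ mTEC-like cells were shallower, with a median of 3059 UMIs against 10970 in WT-Control, and their Psmb11 and Prss16 sum was 304 against 62.1 CPM. In those with 0 UMIs of both genes the Foxn1 ratio was 0.22, with an interval across 0.

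**Figure D2:**
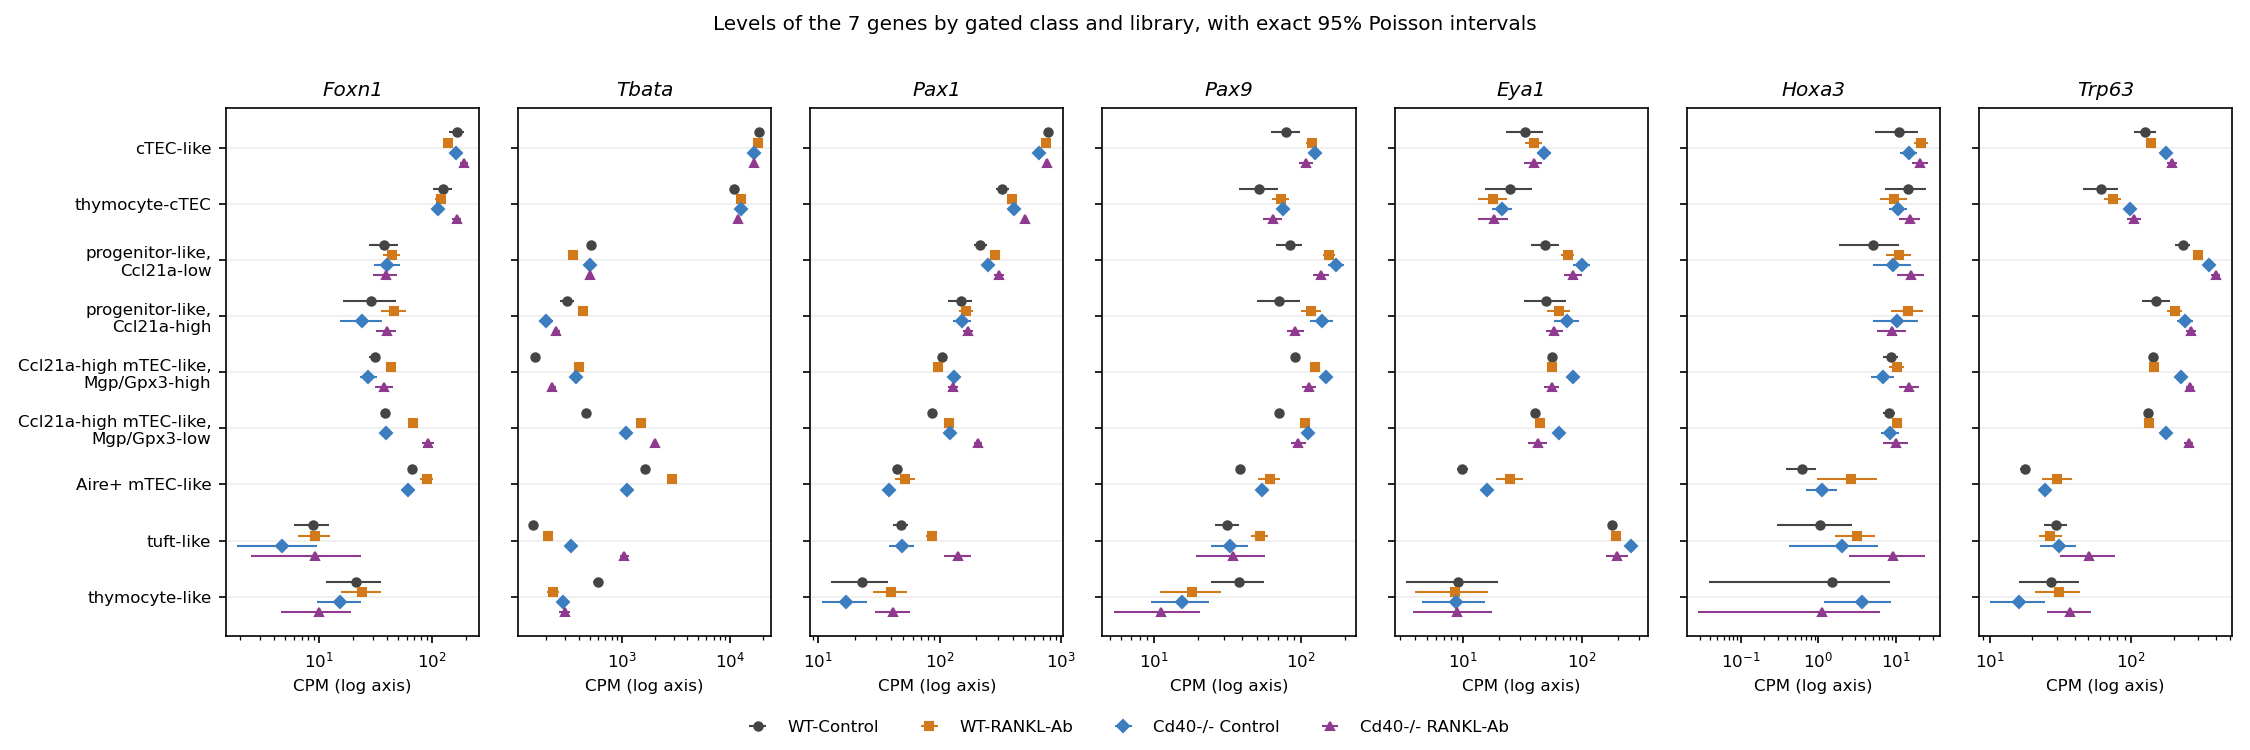
Levels of the 7 genes in CPM on a log axis, one panel per gene, for 9 cell classes and the 4 libraries; points are levels and bars their 95% counting intervals. Foxn1 lies between 138 and 192 CPM in cTEC-like cells of all libraries, while in Mgp/Gpx3-low cells it runs from 38.4 to 93.3 CPM.

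**Figure D3:**
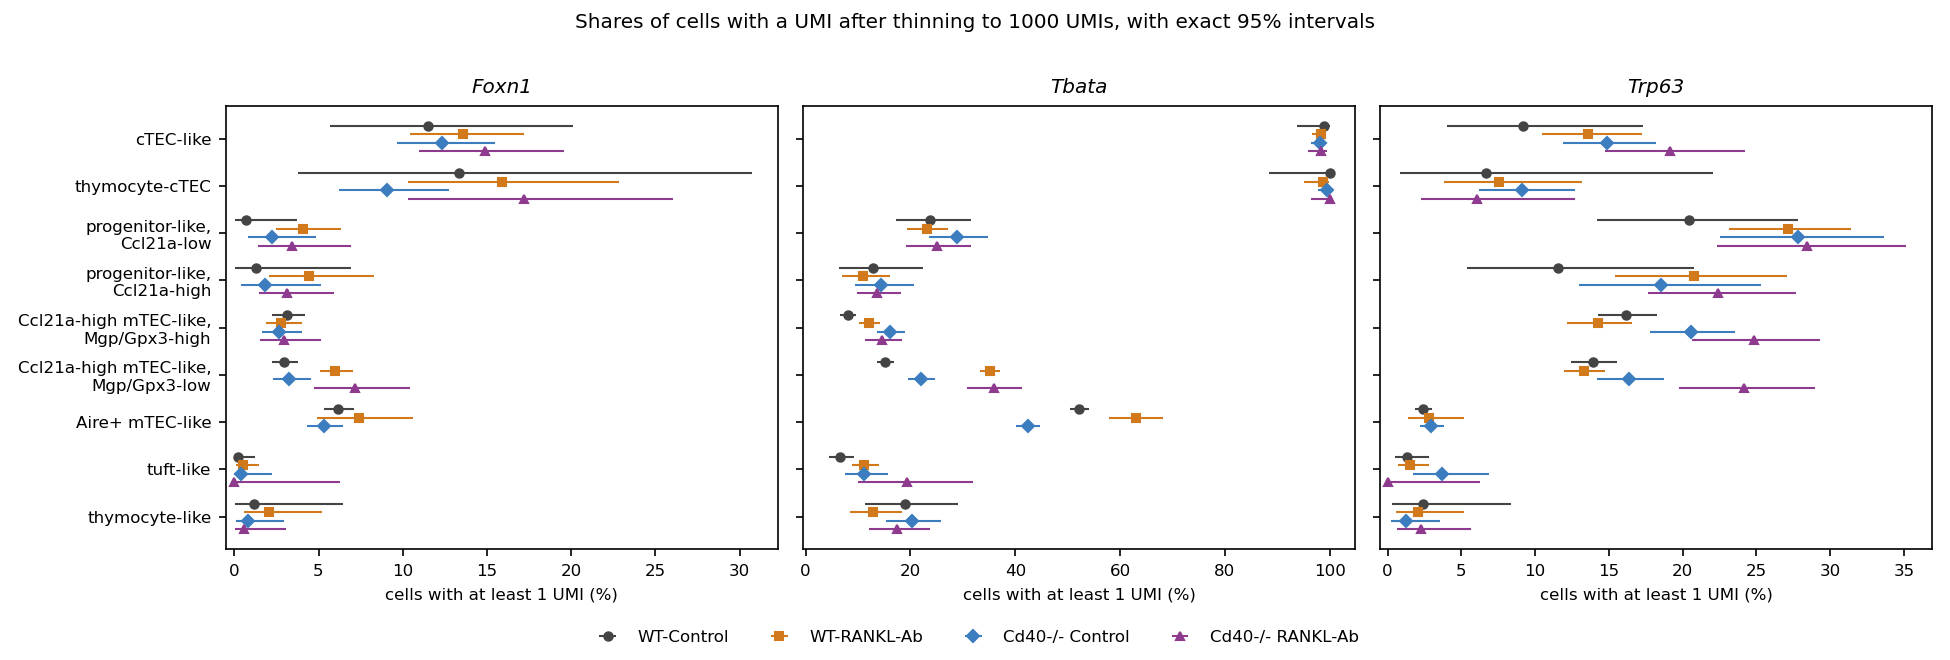
Percent of cells with at least 1 UMI of Foxn1, Tbata or Trp63 after each cell was thinned to 1000 UMIs, by cell class and library, with exact 95% binomial intervals. Foxn1 reaches 11.5% to 14.9% of cTEC-like cells and 0.562% to 2.06% of thymocyte-like cells.

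Tbata marked the cTEC-like cells of every library. It was at 18354, 18101, 16608 and 16597 CPM there, log2 ratios of -0.02 [-0.04 to 0.00], -0.14 [-0.17 to -0.12] and -0.15 [-0.17 to -0.12], and the last 2 turned to 0.34 and 0.12 with the gate on the 4 other cTEC genes. After thinning, 98.9%, 98.3%, 98.1% and 98.2% of cTEC-like cells had a Tbata UMI. In WT-Control thymocyte-cTEC followed at 10860 CPM, then Aire+ mTEC-like cells at 1623 CPM and keratinocyte-like cells at 819 CPM, and the lowest levels, which did not differ beyond counting error, were 158 CPM in Mgp/Gpx3-high, 152 CPM in tuft-like and 147 CPM in Ccl21a-high cycling cells. Within the cells where it was highest, Tbata therefore varied less among libraries than it did over all cells.
Outside the cTEC classes, Tbata in Mgp/Gpx3-low cells was at 461, 1479, 1084 and 2024 CPM, log2 ratios of 1.68 [1.64 to 1.72], 1.23 [1.19 to 1.28] and 2.14 [2.09 to 2.18]. The share of these cells with a Tbata UMI after thinning was 15.1%, 35.1%, 22% and 35.9%, and the share with at least 5 UMIs was 1.34%, 8.45%, 5.49% and 12.1%. In thymocyte-like cells the shares were 19%, 12.9%, 20.2% and 17.4%, and with at least 5 UMIs 2.38%, 0%, 0.826% and 0.562%. The share of WT-Control Mgp/Gpx3-low cells with at least 1 UMI was below that of its thymocyte-like cells. The share in Cd40-/- Control was close to that of its thymocyte-like cells. With at least 5 UMIs the share was 1.34% against 2.38% in WT-Control, and 5.49% against 0.826% in Cd40-/- Control. These shares alone cannot tell whether the Mgp/Gpx3-low cells expressed Tbata. Thymocyte-like cells could carry some UMIs of Psmb11 and Prss16, and in WT-Control their Tbata level was 594 CPM, above the 461 CPM of Mgp/Gpx3-low cells. The source of the Tbata UMIs in either class was not tested.
In the Mgp/Gpx3-low cells with 0 UMIs of Psmb11 and Prss16, Tbata was at 258, 515, 282 and 309 CPM, log2 ratios of 1.00, 0.13 and 0.26. In those with at least 1 such UMI it was at 970, 2655, 2180 and 2766 CPM, log2 ratios of 1.45, 1.17 and 1.51. The Tbata ratios were thus larger in the cells that also carried cTEC transcripts, though in WT-RANKL-Ab the ratio was still 1.00 without them. The cells with 0 such UMIs were 80.4%, 61.6%, 66.9% and 38.7% of the class, with medians of 5841, 5937.5, 5113 and 6347 UMIs. Psmb11 and Prss16 were highest in the same cells as Tbata, so the split cannot tell how much of the smaller ratios came from the selection. In Mgp/Gpx3-high cells Tbata was at 158, 399, 372 and 227 CPM, and its ratios of 1.34, 1.24 and 0.52 became -0.01, 0.43 and -0.02 in cells with 0 UMIs of both genes. The part of cells or RNA of cTECs in these values was not tested.
In tuft-like cells Tbata was at 152, 206, 335 and 1051 CPM, beside a Psmb11 and Prss16 sum of 43.0, 112, 127 and 506 CPM. In Aire+ mTEC-like cells it was at 1623 CPM in WT-Control, 2874 CPM in WT-RANKL-Ab and 1112 CPM in Cd40-/- Control, log2 ratios of 0.82 and -0.55. Within Ccl21a-low progenitor-like cells it was at 519, 354, 501 and 505 CPM. The WT-RANKL-Ab ratio there was -0.55 [-0.70 to -0.41] and turned to 0.15 with the gate on the 4 other cTEC genes.

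**Figure D4:**
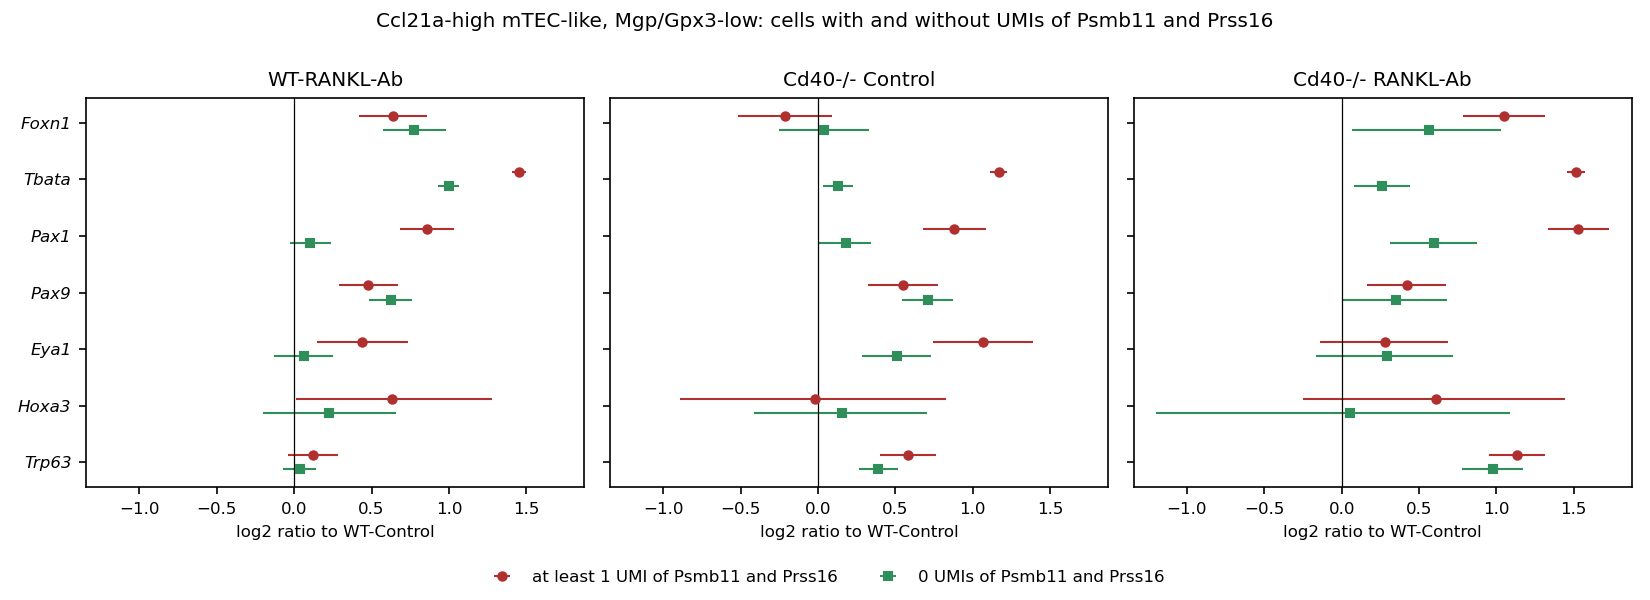
Log2 ratios to WT-Control of the 7 genes in Mgp/Gpx3-low cells, separately in cells with at least 1 and with 0 UMIs of Psmb11 and Prss16, with 95% counting intervals, one panel per library. For Tbata in Cd40-/- RANKL-Ab the ratio is 1.51 in the former and 0.26 in the latter, whereas Trp63 is similar in both at 1.13 and 0.98.

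Genes known to depend on FOXN1 were listed as Psmb11, Prss16, Ccl25, Dll4, Cxcl12, the Kit ligand Kitl, Cd83, which TECs need for CD4 T cell selection, and the fibroblast growth factor receptor Fgfr2; Psmb11 and Prss16 also set the cTEC gate. Fgfr2 is also on the list of basal genes below. Over all cells, 8, 7 and 8 of the 8 were at least 2-fold higher, where 4.45%, 2.52% and 9.15% of all genes were, with median log2 ratios of 1.49, 1.70 and 2.70 beside -0.01, 0.06 and -0.07 for all genes. Cxcl12, for example, was at 76.0, 459.9, 425 and 965 CPM, and Dll4 at 6.66, 16.8, 22.3 and 38.9 CPM. Both were lowest in WT-Control and highest in Cd40-/- RANKL-Ab, as was the share of UMIs held by cTEC-like cells. Without the shared barcodes, Cd40-/- RANKL-Ab had Cxcl12 at 754 and Dll4 at 26.9 CPM, and all 8 genes were still at least 2-fold higher, with a median of 2.23.
Within cTEC-like cells none of the 8 was past 2-fold in any library, and the medians of 0.12, 0.18 and 0.13 lay beside 0.13, 0.23 and 0.16 for all genes. Psmb11 was at 3580, 3001, 2806 and 2994 CPM, and Dll4 at 72.1, 80.3, 115 and 104 CPM. In Mgp/Gpx3-low cells, 3, 4 and 6 of the 8 were at least 2-fold higher, against 1.22%, 3.6% and 5.96% of all genes, with medians of 0.83, 1.04 and 1.99 beside 0.10, 0.10 and 0.11. Psmb11 was at 9.97, 80.5, 46.8 and 176 CPM there, Cxcl12 at 54.2, 90.4, 156 and 281 CPM and Kitl at 5.85, 12.1, 14.9 and 28.7 CPM. These 3 genes and Foxn1 were thus all highest in the Mgp/Gpx3-low cells of Cd40-/- RANKL-Ab. In Ccl21a-low progenitor-like cells, Ccl25 stood out as lower than in WT-Control in each library, at 669, 237, 259 and 264 CPM, beside an Aire, Fezf2 and Cd80 sum of 350, 8.55, 72.2 and 2.36 CPM whose part in this was not tested. The same sums stand beside every other ratio of this class, for the genes described above and below. Their part in those ratios was not tested either.

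Pax1, a paired-box factor of the pharyngeal pouches, followed the cTEC-like cells too. In WT-Control it was at 779 CPM in cTEC-like cells, 328 CPM in thymocyte-cTEC, 216 CPM in Ccl21a-low and 149 CPM in Ccl21a-high progenitor-like cells and 104 CPM in Mgp/Gpx3-high cells, each below the one before by more than the intervals. Across libraries it was at 779, 754, 659 and 756 CPM in cTEC-like cells. The Cd40-/- Control ratio of -0.24 [-0.35 to -0.12] turned to 0.30 with the gate on the 4 other cTEC genes. Pax1 in Mgp/Gpx3-low cells was at 86.4, 119, 122 and 206 CPM, log2 ratios of 0.46 [0.36 to 0.56], 0.49 [0.37 to 0.62] and 1.25 [1.11 to 1.39]. In the cells with 0 UMIs of Psmb11 and Prss16 these were 0.10, 0.18 and 0.60. Ccl21a-low progenitor-like cells had Pax1 at 216, 287, 250 and 307 CPM, with intervals above 0 in both antibody libraries.

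Pax9, its close paralog, had another pattern: it was spread widely over the classes and its ratios pointed one way. In WT-Control it lay between 31.6 CPM in tuft-like and 91.4 CPM in Mgp/Gpx3-high cells, and each class overlapped the next in this order. In cTEC-like cells it was at 79.0, 118, 125 and 108 CPM, log2 ratios of 0.58 [0.23 to 0.94], 0.67 [0.32 to 1.02] and 0.45 [0.10 to 0.82]. In Ccl21a-low progenitor-like cells it was at 83.6, 155, 174 and 137 CPM, log2 ratios of 0.89 [0.57 to 1.22], 1.05 [0.72 to 1.40] and 0.71 [0.37 to 1.07]. The interval lay above 0 in 6, 6 and 4 of the 6 classes compared, and in none of the 6 was Pax9 lower than in WT-Control. Of all genes, 12.1%, 22.1% and 15.1% had such an interval in cTEC-like cells, and 35.6%, 33.5% and 31.2% in Mgp/Gpx3-low cells. The ratios of the 6 classes all share the WT-Control library and are not independent. TMM scaling lowered all ratios to WT-Control, by shifts of -0.25 to -0.03 over all cells and in these classes. In cTEC-like cells of Cd40-/- RANKL-Ab the shift was -0.12, and the Pax9 interval then reached 0. The Pax9 ratios in Mgp/Gpx3-low cells were 0.57, 0.65 and 0.43. Levels in thymocyte-like cells, which should lack Pax9, went the other way, at 38, 18.3, 15.4 and 11.2 CPM.

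Eya1, a transcriptional co-activator and phosphatase, was highest in tuft-like cells, the chemosensory TECs set by markers such as Trpm5 and Pou2f3. It was at 178, 194, 258 and 198 CPM there, log2 ratios of 0.13 [-0.02 to 0.28], 0.54 [0.36 to 0.72] and 0.16 [-0.18 to 0.48]. The next class in WT-Control, Mgp/Gpx3-high cells at 56.1 CPM, was lower by more than the intervals. After thinning, 19.6%, 17.3%, 23.0% and 22.8% of tuft-like cells had an Eya1 UMI (62.8%, 57.3%, 61.6% and 59.3% before), against 3.57%, 2.06%, 0.826% and 1.69% of thymocyte-like cells, at median depths of 6881, 6020, 5226.5 and 6793 UMIs in tuft-like cells. Eya1 in Cd40-/- Control was also higher in Ccl21a-low progenitor-like cells (49.3 against 99.4 CPM), Mgp/Gpx3-high cells (56.1 against 83.8 CPM) and Mgp/Gpx3-low cells (40.3 against 63.7 CPM). In both antibody libraries it was above WT-Control by more than counting error only in Ccl21a-low progenitor-like cells among the 6 classes, at 75.9 and 84.2 CPM. As said for Ccl25, the Aire, Fezf2 and Cd80 sum of this class was highest in WT-Control. Eya1 was at 9.94 CPM in the Aire+ mTEC-like cells of WT-Control, and the part of such RNA in these ratios was not tested. In cTEC-like cells it was at 33.6, 39.3, 48.4 and 39.3 CPM, and all 3 intervals reached 0.

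Hoxa3, the Hox factor that specifies the third pouch, was counted with few UMIs (313, 479, 326 and 254 over all cells), and several genes of the cluster overlap it on its strand, among them Hoxa4, Hoxa5 and Hoxa6, so its counts are uncertain. Over all cells it was at 3.29, 9.85, 4.92 and 13.3 CPM, log2 ratios of 1.58 [1.38 to 1.79], 0.58 [0.35 to 0.81] and 2.01 [1.77 to 2.26], the last with an interval of 1.73 to 2.26 without the shared barcodes. In cTEC-like cells it was at 10.9, 21.2, 14.6 and 20.5 CPM, from 11 UMIs in WT-Control. With the shared barcodes kept, only the WT-RANKL-Ab interval, 0.06 to 2.02, lay above 0. TMM scaling shifted that ratio by -0.08, so its interval then reached 0. Without the shared barcodes the Cd40-/- RANKL-Ab ratio was 1.01 [0.05 to 2.10], also above 0. Hoxa3 was at 5.02, 10.9, 9.28 and 15.9 CPM in Ccl21a-low progenitor-like cells, with an interval above 0 in Cd40-/- RANKL-Ab. Ccl21a-high progenitor-like cells had 0 Hoxa3 UMIs in WT-Control and 19, 10 and 22 in the others. Taken against a floor of 3 UMIs in that library, the log2 ratios were at least 1.29, 0.86 and 0.64.

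Of the listed partners and paralogs of these factors, 9 are described here, namely Six4, Eya2, Eya3, Eya4, Meis1, Tbx1, Ripply3, Foxi3 and the parathyroid factor Gcm2. In cTEC-like cells 6 of the 9 had at least 20 UMIs, and 0 of these were at least 2-fold higher in any library than in WT-Control. Their median log2 ratios were 0.07, 0.48 and 0.11, beside 0.13, 0.23 and 0.16 for all genes. Meis1, a homeobox factor, was at 86.0 CPM in the cTEC-like cells of WT-Control and at 102, 138 and 99.8 CPM in those of the others. Foxi3 and Gcm2 had 0 UMIs in the cTEC-like cells of all 4 libraries. Eya4 in Ccl21a-low progenitor-like cells was at 65.2, 128, 165 and 134 CPM, past 2-fold in both Cd40-/- libraries. In this class 4.02%, 10.7% and 5.7% of all genes were at least 2-fold higher. Among Mgp/Gpx3-low cells 0 of the 9 genes were at least 2-fold higher in any library, and Eya4 was at 90.5, 130.4, 153 and 125 CPM.

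In WT-Control, Trp63 was highest in Ccl21a-low progenitor-like cells at 232 CPM, above every other class by more than the intervals. Ccl21a-high progenitor-like cells at 151 CPM, Mgp/Gpx3-high cells at 144 CPM, Mgp/Gpx3-low cells at 132 CPM and cTEC-like cells at 125 CPM overlapped in sequence, and Aire+ mTEC-like cells were at 17.7 CPM. A processed pseudogene, Gm27005, lies within Trp63 on the same strand.
In Mgp/Gpx3-low cells Trp63 was at 132, 134, 177 and 257 CPM, log2 ratios of 0.02 [-0.06 to 0.11], 0.43 [0.33 to 0.53] and 0.96 [0.84 to 1.08]. In Mgp/Gpx3-high cells it was at 144, 145, 225 and 262 CPM, log2 ratios of 0.01 [-0.10 to 0.13], 0.64 [0.53 to 0.76] and 0.86 [0.74 to 0.98]. In both, the antibody alone left Trp63 level with WT-Control within counting error, and the Cd40-/- libraries were higher. The reverse held for Foxn1 in Mgp/Gpx3-low cells, which was higher in WT-RANKL-Ab and level in Cd40-/- Control.
In cTEC-like cells Trp63 was at 125, 139, 178 and 194 CPM, log2 ratios of 0.15 [-0.13 to 0.43], 0.50 [0.23 to 0.78] and 0.63 [0.36 to 0.92]. In Ccl21a-low progenitor-like cells it was at 232, 298, 357 and 398 CPM, and the first ratio, 0.36 [0.17 to 0.56], turned to -0.13 with gate limits doubled. The interval lay above 0 in 2 of 6 classes in WT-RANKL-Ab and in 6 of 6 in each Cd40-/- library. The shares of all genes with such an interval, given for Pax9 above, apply here too. These ratios also share the WT-Control library, so the classes are not independent.
Thinned shares of Mgp/Gpx3-low cells with a Trp63 UMI were 13.9%, 13.3%, 16.4% and 24.1% (54.7%, 51.0%, 58.0% and 73.7% before thinning), against 2.38%, 2.06%, 1.24% and 2.25% of thymocyte-like cells. Its ratios were similar in cells with and without cTEC transcripts. In Mgp/Gpx3-low cells with 0 UMIs of Psmb11 and Prss16 it was at 139, 142, 182 and 273 CPM, log2 ratios of 0.03, 0.39 and 0.98, and with at least 1 such UMI at 114, 124, 171 and 250 CPM, log2 ratios of 0.12, 0.58 and 1.13.

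**Figure D5:**
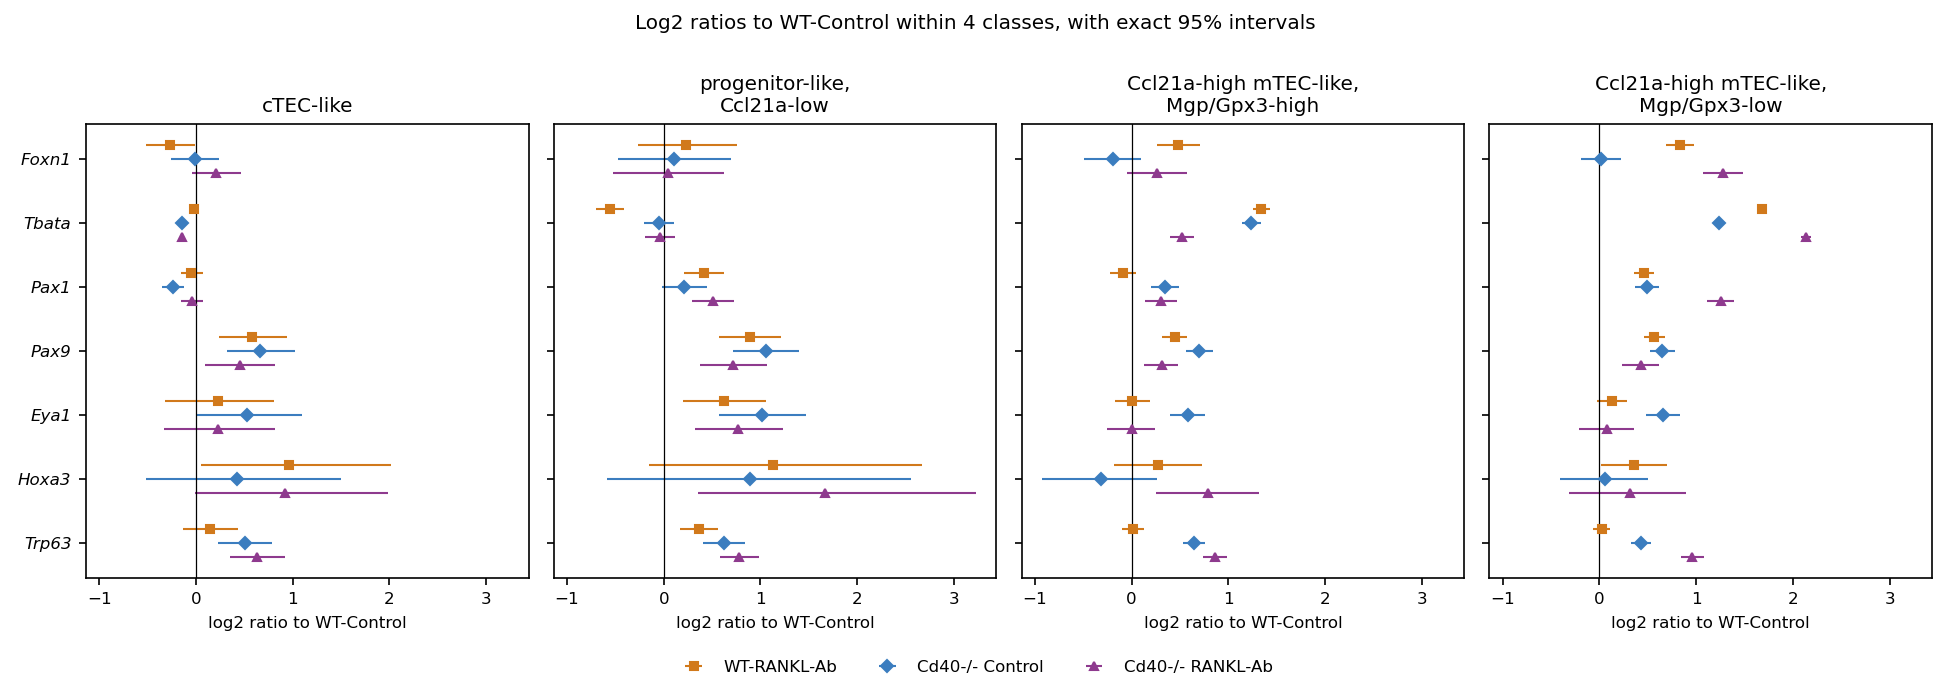
Log2 ratios to WT-Control of the 7 genes in 4 cell classes, with 95% counting intervals, coloured by library. In Mgp/Gpx3-low cells Foxn1 is at 0.83, 0.02 and 1.28 and Trp63 at 0.02, 0.43 and 0.96, and in cTEC-like cells no gene is past 2-fold.

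Genes of the basal programme that p63 maintains were listed as the keratins Krt5, Krt14 and Krt15, the adhesion genes Perp, Itgb4, Itga6, Dst, Col17a1 and Lamb3, and Sfn, Jag2 and Fgfr2. Among Mgp/Gpx3-low cells 0, 3 and 2 of the 12 were at least 2-fold higher in the 3 comparisons, where 1.22%, 3.6% and 5.96% of all genes were, while Krt15 in WT-RANKL-Ab was more than 2-fold lower. The medians were -0.02, 0.25 and 0.63 beside 0.10, 0.10 and 0.11 for all genes. Dst, a linker of hemidesmosomes to keratin filaments, was at 116, 132, 255 and 285 CPM. The hemidesmosome collagen Col17a1 was at 6.88, 5.49, 15.7 and 27.7 CPM. Both were higher in the Cd40-/- libraries, as Trp63 was. Krt15 was not ordered in the same way, at 20.3, 4.39, 66.1 and 13.5 CPM, and Krt5 was at 1501, 2081, 1274 and 1828 CPM.
In cTEC-like cells 10 of the 12 had at least 20 UMIs and 1, 0 and 1 were at least 2-fold higher, beside 4.72%, 9.44% and 6.73% of all genes: Krt14 in WT-RANKL-Ab (82.0 against 182 CPM) and Krt5 in Cd40-/- RANKL-Ab (156 against 376 CPM). In Ccl21a-low progenitor-like cells the counts were 2, 4 and 0, beside 4.02%, 10.7% and 5.7% of all genes, with medians of 0.77, 0.23 and 0.41 beside 0.17, 0.22 and 0.17 for all genes. The 4 genes in Cd40-/- Control were Dst, Fgfr2, Itga6 and the Notch ligand Jag2.

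Over the 53 pairs of a class and a library with at least 50 cells, the genes whose log2 levels ran most like Foxn1 among 16150 genes were Fam213b (Pearson r = 0.87), Bnip3l (r = 0.83) and Snx16 (r = 0.82). For Tbata they were Ccl25 (r = 0.94), which is on the cTEC marker list, Slc22a7 (r = 0.93) and Crip3 (r = 0.91), and for Pax1 they were Ctsl, the cathepsin of cTECs, Cxcl12 (both r = 0.94) and Dctn1 (r = 0.93). Pax9 ran most like Meis2 (r = 0.90), Bmpr1a (r = 0.89) and Isl1 (r = 0.87), and Eya1 most like Zfhx3 (r = 0.91) and also like 3222401L13Rik (r = 0.88). Hoxa3 ran most like Pard6g and Igsf3 (both r = 0.85) and Hey1 (r = 0.84), and Trp63 most like Palld (r = 0.97), Laptm4a (r = 0.96) and Trim29 (r = 0.94). Among the 7 genes themselves, Foxn1 and Tbata had r = 0.73, Pax1 and Hoxa3 0.81, Hoxa3 and Trp63 0.76, and Foxn1 and Eya1 -0.24. The points share libraries, depth and the 16 classes, so these values describe the pattern over classes and carry no test.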

How the data were processed

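The deposited files were 4 droplet matrices of raw UMI counts, 1 for each library of 3 pooled mice; per the file headers and the study's methods they were made by the authors with Cell Ranger (5.0.1 in the headers, 5.1 in the submitters' processing notes) on mm10, after read trimming. Cells needed 200 or more detected genes and no more than 25% of UMIs from mitochondrial genes. Doublets were not called; leaving out the deepest 5% of cells was an alternative.

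Cells were gated by marker UMIs per 10000 UMIs, in a fixed order: thymocyte-cTEC (13 thymocyte genes, at least 20, and past the cTEC limit), thymocyte-like (with under 10 for Psmb11 and Prss16), rarer types, cTEC-like (at least 40 for Psmb11 and Prss16; Ccl25 was left out because it also picked Aire-expressing cells), cycling, progenitor-like (at least 15), Ccl21a-high (at least 50, split at 20 for Mgp and Gpx3) and Aire+ (at least 5). The limits were set on these counts. Within 20% of the limit lay 131 of 1420 cTEC-like, 382 of 5305 Aire+, 143 of 1131 and 186 of 754 progenitor-like and 221 of 5986 Mgp/Gpx3-low cells. The ungated cells numbered 1025, 685, 1159 and 129.

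UMIs were summed per class and library as CPM with exact Poisson intervals, and log2 ratios were given exact conditional binomial intervals where both libraries had at least 20 cells of the class. Counts past 2-fold and medians of the lists and of all genes used log2(CPM + 1) ratios of genes with at least 20 UMIs in the 2 libraries together, and correlations used log2(CPM + 1). Make-up weights used 16 classes and the ungated cells. The weighting at WT-Control make-up needed 19 cells in each class, fewer than the 20 required for ratios. That limit was the number of ciliated-like cells in WT-RANKL-Ab, which had a median of 936 UMIs. Shares were taken after thinning to 1000 UMIs, with Clopper-Pearson intervals. TMM factors came from edgeR 4.0.16; scipy 1.17.1 and numpy 2.4.6 were used, and the intervals were tested on simulated data. Named genes were the 7 genes, every gene of the 3 lists and, for each of the 7, the 3 genes of highest correlation; some of these are not reported here. The 7 genes, the lists and the comparisons were chosen with earlier results of these data known. No test was possible with 1 library per condition.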

Additional observations from a re-analysis of the deposited data

Results flagged for a closer look

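In 8 pairs of a gene and a class, the ratios for the RANKL antibody had opposite directions in wild-type and in Cd40-/- mice. In each pair both 95% counting intervals excluded 0. The pairs were picked from all pairs of a gene and a class compared here. The share of all genes with such opposite directions was not counted, so the 8 pairs stand without a base rate. Each value is a log2 ratio of the antibody library to the control library of its genotype; the difference between genotypes was not tested, since each condition was 1 library. Pax9 did so in 5 classes. Its ratio was 0.58 in WT and -0.21 in Cd40-/- for cTEC-like cells, 0.89 and -0.34 for Ccl21a-low progenitor-like cells, 0.72 and -0.60 for Ccl21a-high progenitor-like cells, 0.45 and -0.39 for Mgp/Gpx3-high cells, and 0.57 and -0.22 for Mgp/Gpx3-low cells. The genotypes share no library in these ratios, and in all 5 classes Pax9 was lowest in WT-Control and highest in Cd40-/- Control. Foxn1 in cTEC-like cells was at -0.26 in WT and 0.22 in Cd40-/-. The first of these turned to 0.29 when each cell counted equally. Tbata was at 0.21 and -0.09 in thymocyte-cTEC, where 78 of the 99 Cd40-/- RANKL-Ab barcodes also occurred in Cd40-/- Control. Tbata was at 1.34 and -0.72 in Mgp/Gpx3-high cells, beside a Psmb11 and Prss16 sum of 46.4, 134, 123 and 125 CPM in the 4 libraries.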

How the results depend on the processing

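No paired analysis was possible because each condition was 1 library, and for the same reason no library could be left out of a group. Of 2316 recomputed values, 1841 were called the same, 466 moved and 9 reversed. Of the 187 that concern Foxn1 ratios and counts of the 7 genes, 150 were called the same. Levels, shares and ratios were the same if they stayed inside their main counting interval. Counts of genes were the same if equal to the main count or within a set fold of it. Make-up values were judged by the interval width of the ratio over all cells. In all of what follows the values under the main settings stand in parentheses, and the cause of a change was not tested. With gate limits halved, Foxn1 in Mgp/Gpx3-low cells of Cd40-/- Control was at 0.27 (0.02), at WT-Control make-up in WT-RANKL-Ab at 0.29 (0.42), and from make-up alone in WT-RANKL-Ab and Cd40-/- RANKL-Ab at 0.13 (0.05) and 0.58 (0.49). With limits doubled, Foxn1 at WT-Control make-up was at 0.56 (0.42) in WT-RANKL-Ab but -0.027 (-0.11) with Cd40 loss alone, and from make-up alone at -0.11 (0.05), 0.20 (0.30) and 0.22 (0.49); Trp63 in Ccl21a-low progenitor-like cells of WT-RANKL-Ab reversed to -0.13 (0.36) and from make-up in Cd40-/- Control to -0.0080 (0.05). With the cTEC gate on Ly75, Enpep, Slc46a2 and Snap91, Foxn1 in cTEC-like cells of Cd40-/- Control was at 0.25 (-0.01), at WT-Control make-up at 0.50 (0.42) and -0.028 (-0.11), and from make-up at -0.17 (0.05), 0.19 (0.30) and 0.18 (0.49); Tbata in cTEC-like cells reversed to 0.34 (-0.14) and 0.12 (-0.15) in the Cd40-/- libraries and in Ccl21a-low progenitor-like cells of WT-RANKL-Ab to 0.15 (-0.55), and Pax1 in cTEC-like cells of Cd40-/- Control to 0.30 (-0.24); the genes with intervals above 0 in cTEC-like cells became 4 and 5 (2 and 2). TMM scaling gave Foxn1 over all cells 0.23, 0.041 and 0.78 (0.37, 0.20 and 0.92). When each cell counted equally, Foxn1 in cTEC-like cells was at 0.29 (reversed from -0.26), 0.44 (-0.01) and 0.73 (0.21). The genes with intervals above 0 in cTEC-like cells of the antibody libraries became 1 (2) with TMM, without the 5% deepest cells and in cells with 0 thymocyte marker UMIs; the last 2 settings gave Foxn1 in Mgp/Gpx3-low cells of WT-RANKL-Ab 0.98 (0.83), and the last gave 0.24 (0.02) in Cd40-/- Control. With 10 CPM added, 2, 1 and 3 (4, 1 and 4) genes were past 2-fold over all cells. Alternatives chosen after seeing the data were leaving out the shared barcodes, which gave Foxn1 over all cells of Cd40-/- RANKL-Ab 0.65 (0.92), 0.18 (0.49) from make-up alone and 4 (2) genes with intervals above 0 in cTEC-like cells, and keeping only cells with 0 UMIs of Psmb11 and Prss16, which gave Foxn1 in Mgp/Gpx3-low cells of Cd40-/- RANKL-Ab 0.56 (1.28), 3 (5) genes with intervals above 0 there in WT-RANKL-Ab, and Tbata in Mgp/Gpx3-high cells -0.010 (reversed from 1.34) and -0.017 (reversed from 0.52). Limits of 13% on mitochondrial UMIs, totals without Ccl21a and a floor of 100 UMIs reversed no value. Hoxa3 and rare classes were limited by few UMIs.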
